A study of Mus musculus with 6 samples.

Results

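The transcripts of 8 genes that carry out or gate programmed cell death were followed in primary mouse kidney tubule cells lacking the transcription factor Elf3: the caspase genes Casp2, Casp6, Casp8, Casp9 and Casp12, the receptor-interacting kinase genes Ripk1 and Ripk3, and Mlkl. They were picked by gene symbol, and each symbol matched 1 of the 55487 genes in the deposited tables. All 8 passed the filter on low counts that left 13755 genes to test.

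RNA was sequenced from 6 libraries of cultured renal tubular epithelial cells. In 3 libraries, labelled ELF3 knockout (KO below), the cells had been infected with an adenovirus expressing Cre recombinase to delete Elf3. In the other 3, with the genotype label wild type, a control adenovirus had been used. Cells of both groups had then received TNFα and IFNγ, so no library shows the level before these cytokines, and the labels give no dose or duration. The strain and age of the mice, the Elf3 allele and the transgene of the control virus are not stated in the labels. All libraries carry the label of the same batch. No label says that the replicates came from separate animals or cultures, so the p-values measure the spread between these libraries, which may be technical.

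Caspases are cysteine proteases made as inactive precursors. When TNF binds its receptor, RIPK1 is recruited and modified with ubiquitin chains. If these are lost, RIPK1 can join FADD and caspase-8 in a complex that starts apoptosis, with the caspase-8 relative cFLIP (gene Cflar) limiting cleavage. Where caspase-8 activity is low, RIPK1 and RIPK3 bind each other, RIPK3 phosphorylates MLKL, and MLKL opens the plasma membrane. This form of death, necroptosis, is known from studies of tubular injury in mouse kidneys. These proteins are regulated largely by cleavage, ubiquitin and phosphorylation, none of which is measured by RNA.

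Of the 8 genes, Casp8 was higher in KO cells, Casp12 was lower, and the other 6 did not pass the test. A gene was called at an adjusted p under 0.05 (edgeR quasi-likelihood test, Benjamini-Hochberg adjustment over all genes tested). The 2 calls are 25% of the 8, where 36.6% of all genes tested were called, 18.3% as higher and 18.3% as lower. The median log2 fold change of the 8 was 0.047, against -0.0085 over all genes tested. The share of calls among these 8 genes was thus not above that of the whole table, and the changes sat in single genes of the group.

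The promoters of the 2 called genes are shown because these are the transcripts that differed. Each window runs from 250 bases before the RefSeq start site to 50 after it (GRCm38.p6, plus strand for both genes), and capitals mark a match to the gamma-activated sequence TTCNNNGAA, a motif of interferon-gamma response genes. The Casp12 window is chr9:5345226-5345525, and its start site is 46 bases from the GENCODE gene start. The Casp8 window is chr1:58802252-58802551, and its start site lies 7128 bases inside the GENCODE gene, so an upstream start is not covered.
Casp12: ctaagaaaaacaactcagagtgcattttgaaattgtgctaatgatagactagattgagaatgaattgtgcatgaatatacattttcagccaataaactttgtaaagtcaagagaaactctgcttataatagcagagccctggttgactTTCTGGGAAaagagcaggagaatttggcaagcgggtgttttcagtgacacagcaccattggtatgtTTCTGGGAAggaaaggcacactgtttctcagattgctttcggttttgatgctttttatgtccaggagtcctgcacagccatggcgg
Casp8: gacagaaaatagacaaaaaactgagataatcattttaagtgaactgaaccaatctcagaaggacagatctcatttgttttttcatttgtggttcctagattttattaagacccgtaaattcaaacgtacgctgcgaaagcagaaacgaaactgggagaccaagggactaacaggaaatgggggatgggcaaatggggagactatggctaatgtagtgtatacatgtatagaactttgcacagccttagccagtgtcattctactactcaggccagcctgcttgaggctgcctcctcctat

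The motif occurred at 2 places in the Casp12 window, with first bases at -102 and -36 from the start site and the same 9 letters each time. It occurred nowhere in the Casp8 window. Over the 32851 promoters of the RefSeq table, 8.30% held the motif on either strand. Of the 9 promoters listed for the 8 genes, 2 held it, those of Casp12 and of a second Ripk1 start. The ETS motif CCGGAAGT, of the family to which ELF3 belongs, was in 0 of these 9 and in 3.89% of all promoters. The core of the interferon-stimulated response element (ISRE) was in 1, the second Ripk1 start, where it overlaps a gamma-activated match, and in 3.44% of all. A match is a run of letters and shows no binding, and a missing match says nothing of a factor.

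Library totals were between 8961779 and 10774195 estimated counts, 0.908% to 1.12% of them mitochondrial. A floor of 3 counts corresponded to 0.282 to 0.337 CPM (counts relative to library size, with TMM factors), which covers counting error only. Elf3 itself (chromosome 1, 135253575 to 135258568, minus strand, mm10) had 38, 32 and 21 counts in the KO libraries, against 201, 250 and 206 in the controls, and its log2 fold change was -2.84 ± 0.18 (SE; adjusted p = 6.84e-14). The labels do not say which part of the gene Cre removes, so whole-gene counts check the labels only in part. Of 14 tubular epithelial markers, 11 were tested, and Krt8, Krt18 and Cdh1 were abundant. The proximal transporter gene Slc34a1 had 1 count over the KO libraries and 0 over the controls, and the collecting duct channel gene Aqp2 had 0 in both groups.

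Casp8, the initiator protease of death receptors and the brake on necroptosis, lies on chromosome 1 (58795374 to 58847503, plus strand, mm10). It had 2372, 2837 and 2791 counts in the KO libraries, against 1553, 1499 and 1317 in the controls. In TPM, the authors' unit that is scaled for length and library size, this was 220.6, 225.9 and 226.4 in KO cells, against 112.5, 117.0 and 110.3 TPM in control cells. The libraries of each group lay close together and the groups did not overlap. The mean was 267 ± 1.81 CPM in KO cells and 146 ± 0.456 CPM in control cells (SD, n = 3 each), a log2 fold change of 0.88 ± 0.049 (SE; adjusted p = 2.7e-15, edgeR). With limma on log2(TPM + 0.1) it was 0.99 (adjusted p = 3.41e-05). An exact permutation of log2 CPM over the libraries (two-sided) gave p = 0.1, the smallest that 3 against 3 libraries can give. A larger fitted change, in either direction, was seen in 8.08% of the genes tested. Both SDs in CPM are smaller than counting error alone would give at these counts, so they understate the spread to be expected.

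Casp12 belongs to the inflammatory caspase cluster of the mouse (chromosome 9, 5345430 to 5373032, plus strand), and its part in endoplasmic reticulum stress is debated. It had 32, 37 and 38 counts in the KO libraries, against 96, 94 and 108 in the controls. The levels were 2.70, 2.59 and 4.05 TPM in KO cells, against 8.86, 6.88 and 10.9 TPM in control cells. Every KO library was below every control library. The mean was 3.58 ± 0.0961 CPM in KO cells and 10.04 ± 1.64 CPM in control cells (SD, n = 3 each). Casp12 thus fell 2.79-fold, with a log2 fold change of -1.48 ± 0.20 (SE; adjusted p = 4.38e-07, edgeR; exact permutation p = 0.1). A larger fitted change was seen in 2.65% of the genes tested. The gene was near the bottom of the 8 in abundance, and its value rests on 107 counts over the KO libraries and 298 over the controls. Its SD in CPM over the KO libraries is likewise smaller than counting error alone would give.

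**Figure D1:**
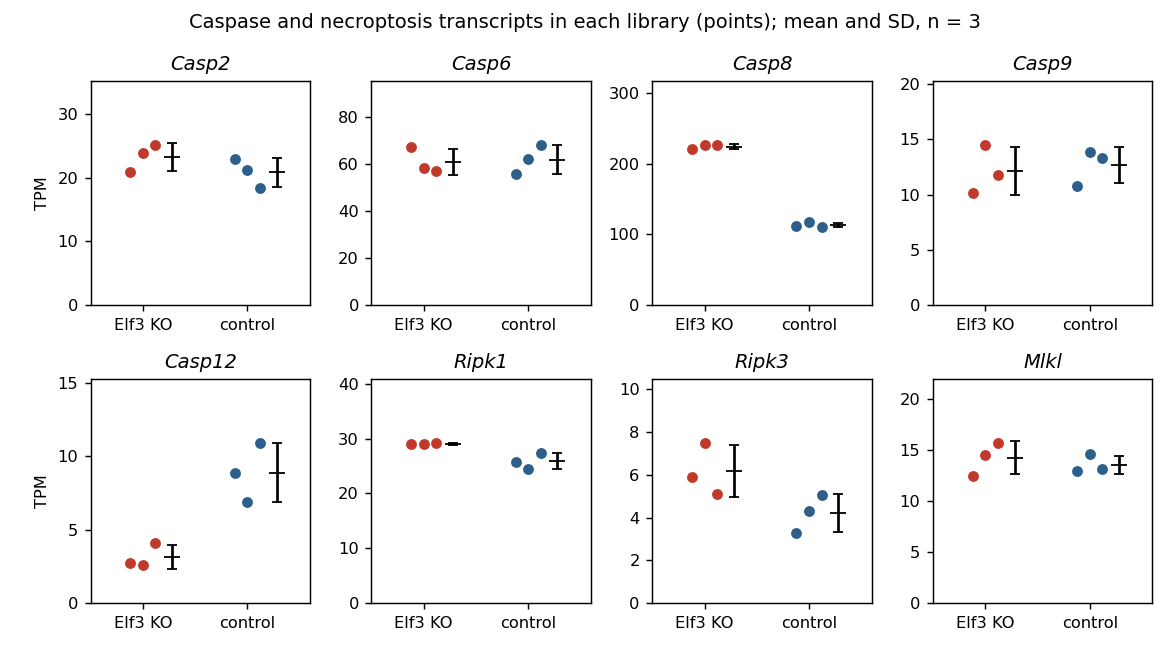
TPM of the 8 genes in each library (points, Elf3 KO red and control blue) with the mean and SD of 3 libraries per group; each panel has its own axis from 0. Casp8 separates at 220.6 to 226.4 TPM in KO cells and 110.3 to 117.0 TPM in control cells, Casp12 at 2.59 to 4.05 and 6.88 to 10.9 TPM, and for Casp2, Casp6, Casp9 and Mlkl the points of the groups intermix.

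Among the kinases, Ripk1, the scaffold and kinase that links TNF receptor 1 to survival or death (chromosome 13, 34002363 to 34037147, plus strand), was not called. Its levels were 29.1, 28.95 and 29.3 TPM in KO cells, against 25.8, 24.5 and 27.4 TPM in control cells. The KO libraries were all above the controls, a separation of the groups that 46.7% of all tested genes also showed. The mean was 61.8 ± 2.56 CPM in KO cells and 55.6 ± 2.27 CPM in control cells (SD, n = 3 each), and the log2 fold change of 0.15 had a 95% interval of 0.0095 to 0.30. Its p was 0.0374 before and 0.0891 after adjustment (edgeR). Ripk1 shares 241 exonic bases with the opposite-strand gene Serpinb6a and 511 with the pseudogene Gm17084. It had fractional counts in 5 libraries, and no label says if strand was used in counting. Serpinb6a was itself higher in KO cells, by 1.34-fold (adjusted p = 5.15e-08), and the part of shared reads in the Ripk1 value was not tested.

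Ripk3, the kinase that activates MLKL (chromosome 14, 55784995 to 55788865, minus strand), had 52, 69 and 46 counts in the KO libraries, against 34, 34 and 45 in the controls. This was 5.88, 7.50 and 5.12 TPM in KO cells, against 3.26, 4.30 and 5.05 TPM in control cells. In TPM the groups just separate, with 5.12 as the lowest KO value and 5.05 as the highest control. In CPM they overlap, at 4.44 to 6.49 in KO cells and 3.20 to 4.97 in control cells. The log2 fold change of 0.56 had a 95% interval of 0.065 to 1.05 and an adjusted p of 0.0693 (edgeR; exact permutation p = 0.2). It was called as higher without KO replicate 3 (0.71, adjusted p = 0.0335) and without control replicate 3 (0.78, adjusted p = 0.0252). Leaving out any of the other 4 libraries gave an adjusted p of 0.124 to 0.250. Adjusted p over the settings tried was 0.0252 to 0.256, and Ripk3 had 167 counts over the KO libraries and 113 over the controls.

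Mlkl, the pore-forming pseudokinase at the end of the pathway (chromosome 8, 111311797 to 111338177, minus strand), had 12.5, 14.5 and 15.7 TPM in KO cells, against 12.95, 14.6 and 13.1 TPM in control cells. The groups overlapped. Its log2 fold change was 0.074, with an interval of -0.19 to 0.34 (adjusted p = 0.695), which leaves out a rise or fall as large as that of Casp8 or Casp12.

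The other initiators and the executioner were also not called. Casp9, the initiator of the mitochondrial pathway (chromosome 4, 141793612 to 141815976, plus strand), had 10.1, 14.5 and 11.8 TPM in KO cells, against 10.8, 13.8 and 13.4 TPM in control cells. Its log2 fold change was 0.020, with an interval of -0.20 to 0.25 (adjusted p = 0.907). Casp9 shares 94 exonic bases with each of the opposite-strand genes Cela2a and Ctrc, which had 0 counts in all libraries. Casp2, the initiator activated on the PIDD1 platform (chromosome 6, 42264985 to 42282508, plus strand), had 20.8, 23.8 and 25.1 TPM in KO cells, against 22.9, 21.1 and 18.4 TPM in control cells. Its log2 fold change was -0.025, with an interval of -0.21 to 0.16 (adjusted p = 0.859). Casp6, which cleaves nuclear lamin A (chromosome 3, 129901425 to 129914103, plus strand), had 66.9, 58.2 and 57.0 TPM in KO cells, against 55.4, 62.0 and 67.9 TPM in control cells. Its log2 fold change was -0.039, with an interval of -0.22 to 0.15 (adjusted p = 0.775). For these 3 genes the libraries of the groups intermix.

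**Figure D2:**
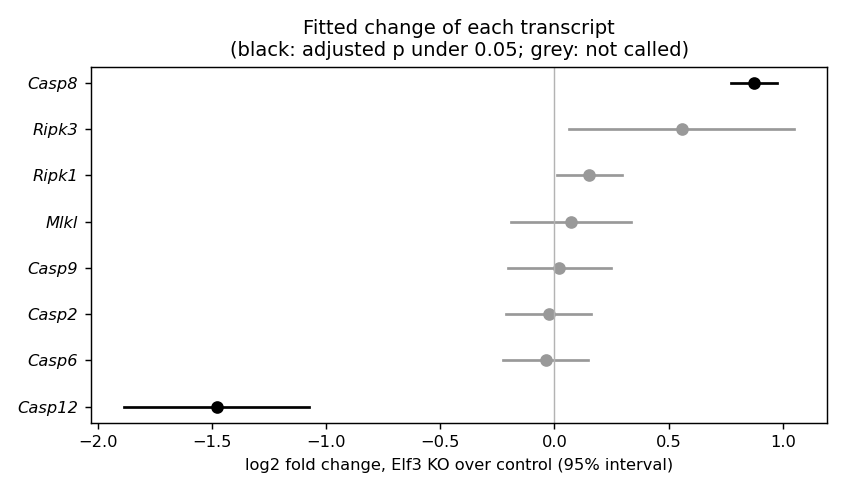
Fitted log2 fold change of each gene, Elf3 KO over control, with its 95% interval from the edgeR quasi-likelihood model; black marks an adjusted p under 0.05. Casp8 (0.88) and Casp12 (-1.48) are called, and the grey intervals of Ripk3 and Ripk1 start just above 0 without passing the adjustment.

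Casp8 was also the most abundant of the 8 in both groups, per length. In KO cells it was followed by Casp6 at 60.7 ± 5.41 TPM, Ripk1 at 29.1 ± 0.155, Casp2 at 23.2 ± 2.21, Mlkl at 14.2 ± 1.63, Casp9 at 12.1 ± 2.20, Ripk3 at 6.17 ± 1.22 and Casp12 at 3.11 ± 0.813 TPM (SD, n = 3). In that order only Mlkl and Casp9 overlapped as neighbours. In control cells Casp6 followed at 61.8 ± 6.23 TPM, Ripk1 at 25.9 ± 1.44, Casp2 at 20.8 ± 2.26, Mlkl at 13.5 ± 0.885, Casp9 at 12.7 ± 1.61, Casp12 at 8.88 ± 2.02 and Ripk3 at 4.20 ± 0.899 TPM. There Mlkl overlapped Casp9, and Casp9 overlapped Casp12. The first 6 places were the same in both groups, and Ripk3 and Casp12 held places 7 and 8 in KO cells and places 8 and 7 in control cells.

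The summed TPM of the 8 genes was 373 ± 3.87 in KO cells and 261 ± 7.45 in control cells (SD, n = 3 each). Casp8 made up 59.9% to 60.5% of that sum in KO libraries and 41.4% to 44.5% in control libraries. Without Casp8 the sums overlapped, at 148 to 150.1 TPM in KO libraries and 140.1 to 156 TPM in control libraries. Set against its partners by TPM, Casp8 over Cflar was 2.80 ± 0.124 in KO cells and 1.65 ± 0.178 in control cells. Casp8 over Fadd, its adaptor, was 29.0 ± 2.70 in KO cells and 14.5 ± 2.64 in control cells, and Casp8 over Mlkl was 15.9 ± 1.66 in KO cells and 8.38 ± 0.329 in control cells (SD, n = 3 each). Each of these 3 ratios was higher in every KO library than in any control library. Casp8 over Ripk3 overlapped between the groups, at 37.3 ± 7.05 in KO cells and 27.9 ± 6.36 in control cells. The ratios are descriptions of RNA levels and were not tested.

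**Figure D3:**
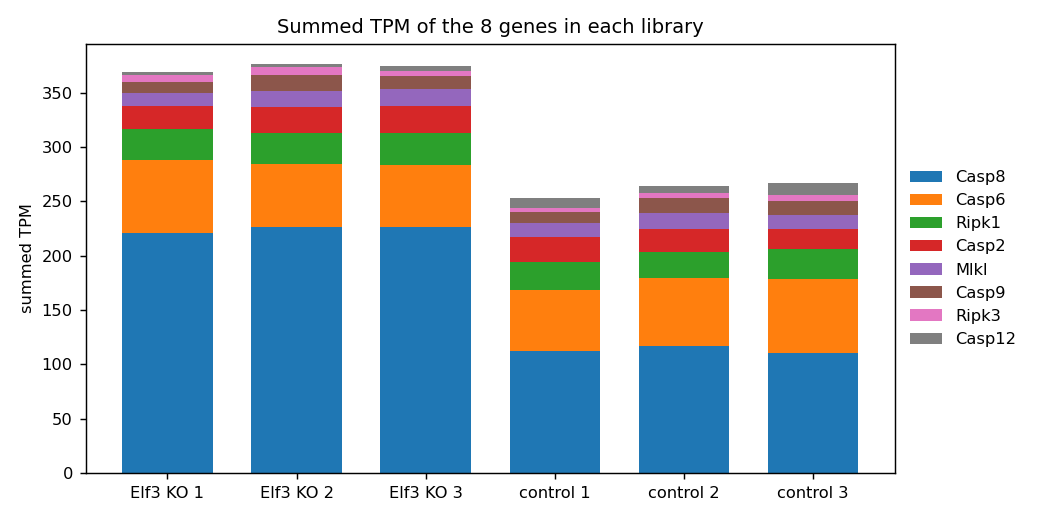
Summed TPM of the 8 genes in each library, Elf3 KO libraries left and control libraries right, with 1 colour per gene. The KO columns reach 369 to 376 TPM and the control columns 253 to 266.5 TPM, and the Casp8 block differs most in height.

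Other genes of the same pathways were taken from lists chosen with earlier results of these data known. Of 10 death receptor and adaptor genes tested, 3 rose, 1 fell and 6 did not pass, with a median log2 fold change of 0.031. Tnfrsf10b, the mouse TRAIL receptor, rose 1.41-fold (adjusted p = 2.65e-08). Cflar, the cFLIP gene that neighbours Casp8 on chromosome 1, rose 1.25-fold (adjusted p = 2.26e-05), and Bid, a caspase-8 substrate that carries the signal to mitochondria, rose 1.20-fold (adjusted p = 0.00129). Traf2, an adaptor of TNF receptor 1, fell 1.19-fold (adjusted p = 0.0318). Fadd was at 17.2 ± 1.80 CPM in KO cells and 17.6 ± 3.14 CPM in control cells (adjusted p = 0.867), and Tnfrsf1a, the receptor that binds TNF, at 69.8 ± 6.40 CPM in KO cells and 67.3 ± 7.03 CPM in control cells (SD, n = 3 each; adjusted p = 0.617).

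Of 7 genes of the platforms that activate caspase-9 and caspase-2, 3 rose and 4 did not pass (median 0.13). Pidd1, the scaffold for caspase-2, rose 1.55-fold (adjusted p = 4.02e-07), and Apaf1, the scaffold for caspase-9, rose 1.25-fold (adjusted p = 3.31e-05). Diablo, an antagonist of the caspase inhibitor XIAP, rose 1.19-fold (adjusted p = 0.0171), with fractional counts in 3 libraries. The scaffolds thus rose where Casp2 and Casp9, the proteases they hold, were not called.

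Of 17 genes listed for the control of RIPK1 by ubiquitin and kinases, 5 rose, 1 fell and 11 did not pass (median 0.060). Ikbke, a kinase that phosphorylates RIPK1 with TBK1, rose 2.09-fold, to 118 ± 4.81 CPM in KO cells, against 56.5 ± 4.60 CPM in control cells (SD, n = 3 each; adjusted p = 5.22e-14). Cyld, a deubiquitinase that strips chains from RIPK1, rose 1.47-fold (adjusted p = 9.34e-09), Tnip1, the ABIN-1 gene, 1.42-fold (adjusted p = 3.1e-07), and Map3k7, the TAK1 kinase, 1.35-fold (adjusted p = 4.68e-07). Ikbkg, the NEMO gene, fell 1.23-fold (adjusted p = 0.000522). The cIAP ligase genes Birc2 and Birc3 and the A20 gene Tnfaip3 were not called, with adjusted p of 0.0561, 0.253 and 0.264.

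Of 8 necroptosis partners tested, 4 rose, 1 fell and 3 did not pass (median 0.13). Itpk1, an inositol phosphate kinase known to be needed for MLKL activation, rose 1.51-fold (adjusted p = 3.2e-05), and the mitochondrial phosphatase gene Pgam5 rose 1.25-fold (adjusted p = 0.000187). Ppm1b, a phosphatase known to act on RIPK3, rose 1.16-fold (adjusted p = 0.0032). The chaperone gene Hsp90aa1 rose 1.11-fold (adjusted p = 0.00491), with fractional counts in all 6 libraries. Tlr3, a receptor for double-stranded RNA, fell 1.33-fold (adjusted p = 0.000101). Zbp1, a sensor that can engage RIPK3, had 8 counts over the KO libraries and 10 over the controls and was not tested.

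Among caspase genes outside the 8, Casp4, the sensor of cytosolic lipopolysaccharide, fell 4.24-fold (adjusted p = 3.57e-06), with 32 counts over the KO libraries and 137 over the controls. Casp4 is the gene next to Casp12 on chromosome 9, 8647 bases away. Casp14 was not called (adjusted p = 0.595). Casp1, the inflammasome protease, had 10 counts over the KO libraries and 13 over the controls, too few to test. Of 5 pyroptosis genes tested, Pycard, the inflammasome adaptor, rose 3.32-fold from a low level, to 5.77 ± 1.18 CPM in KO cells, against 1.74 ± 0.653 CPM in control cells (SD, n = 3 each; adjusted p = 1.38e-05). In TPM the groups overlapped for Pycard, at 5.27, 6.51 and 8.53 in KO cells and 0.76, 5.93 and 1.72 in control cells. Pycard had 174 counts over the KO libraries and 52 over the controls. Ninj1, which completes membrane rupture, rose 1.23-fold (adjusted p = 0.0219), and the pore genes Gsdmd and Gsdme were not called (adjusted p = 0.897 and 0.710).

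Of 11 caspase substrates and execution genes, 2 rose, 3 fell and 6 did not pass (median -0.059). Gas2, a cytoskeletal substrate of caspases, fell 2.76-fold (adjusted p = 9.99e-10), Parp1 1.33-fold (adjusted p = 8.11e-06) and Lmnb1 1.19-fold (adjusted p = 0.00219). Lmna, the lamin A gene, rose 1.34-fold (adjusted p = 1.21e-08), and Dffb, the nuclease that cuts DNA in apoptosis, rose 1.30-fold (adjusted p = 0.04). These shares of calls stand beside 36.6% over all genes tested, and no list was tested against the rest. As for Pycard, the groups overlapped in TPM for the called genes Traf2, Apaf1, Ikbkg, Tlr3, Hsp90aa1 and Dffb. For Apaf1 the lowest KO value was 47.09 TPM and the highest control value 50.37 TPM. The calls of these genes were made on counts.

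**Figure D4:**
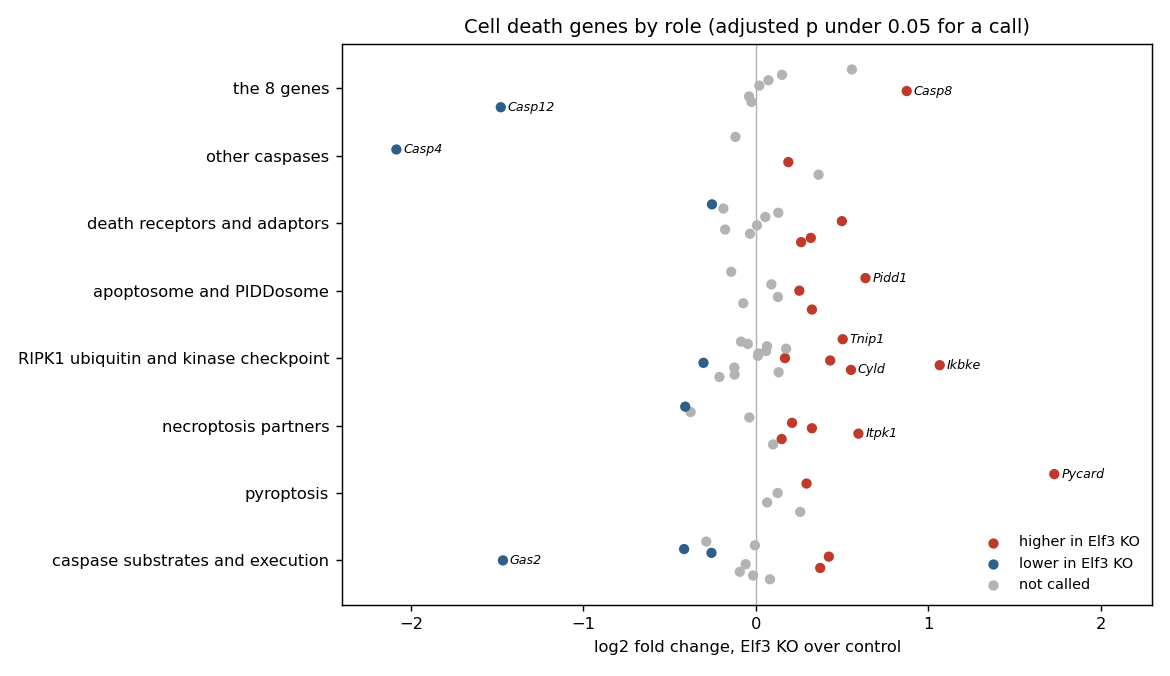
Log2 fold change, Elf3 KO over control, of each tested cell death gene, grouped by role; red and blue mark genes called higher and lower in Elf3 KO at an adjusted p under 0.05, grey the rest, and called genes beyond 0.5 in size are named. Casp4 (-2.08), Casp12 (-1.48) and Gas2 (-1.47) stand far left, Pycard (1.73) and Ikbke (1.07) far right, and most points lie near 0.

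Several of these genes are also used by leukocytes. Of 12 leukocyte markers, 9 were tested and 0 were called by edgeR, DESeq2 or limma-voom, where edgeR called 36.6% of all genes tested. Among the 12 markers, 1 had an unadjusted p under 0.05 (Csf1r, 0.0271, edgeR). Their summed level ranged from 42.2 to 47.9 CPM in KO libraries and from 47.7 to 51.8 CPM in control libraries, and the lymphocyte markers Cd3e and Ms4a1 had 0 counts in every library. Of 7 fibroblast markers, 5 were tested, of which 3 rose and 1 fell, a share of 80% against 36.6% of all genes tested. The summed level of the 7 was 316 to 328 CPM in KO libraries and 253 to 287 CPM in control libraries, mostly from Acta2. The fibroblast markers Dcn and Lum were at or near 0. The 6 endothelial markers summed to 7.97 to 10.9 CPM in KO libraries and 1.88 to 2.10 CPM in control libraries, most of it Kdr. The 5 podocyte markers summed to 275 to 313 CPM in KO libraries and 149 to 154 CPM in control libraries, mostly from Podxl and Synpo. The part of other cells in the Casp8 and Casp12 values was not tested, and in bulk RNA fewer cells of a type and less RNA per cell cannot be told apart.

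The genes most like Casp8 and Casp12 were sought among 10547 named genes with a mean of at least 5 CPM, by the root mean square difference of log2 CPM, centred on the control mean, over the 6 libraries. For Casp8 they were Rbpj, the DNA-binding effector of Notch, at a difference of 0.036, and Ano1, a calcium-activated chloride channel, at 0.037. For Casp12 they were Chdh, the choline dehydrogenase gene, at 0.12, and Dock10, a guanine nucleotide exchange factor gene, at 0.14. The log2 fold changes were 0.86 for Rbpj, 0.90 for Ano1, -1.41 for Chdh and -1.43 for Dock10. Their closeness to those of Casp8 and Casp12 follows from how these genes were chosen and is no separate result.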

How the data were processed

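Bulk RNA sequencing of 6 mouse cell libraries was analysed, 3 per group by sample title. Per gene, unscaled estimated counts were deposited by the authors, and 93.3% of nonzero values were whole within 1e-06. A second table deposited by the authors holds TPM. Per the submitters' processing notes, Salmon, featureCounts and the mm10 build were used, in roles not stated. No label gives strand, read filters or annotation release.

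Counts were rounded, filtered with filterByExpr, scaled by TMM and fitted without covariates in edgeR 4.0.16 (quasi-likelihood test, R 4.3.3), over all genes with Benjamini-Hochberg adjustment. SEs follow from the quasi-likelihood F. Alternatives used DESeq2 1.42.0, limma 3.58.1 (voom and log2 TPM), other scalings, filters and thresholds, a replicate block and the removal of each library. TPM folds are differences of log2(TPM + pseudocount), where low genes appear to change less. Replicates differed by more than sampling noise (chi-square per degree of freedom 2.04 to 3.78). Positions are from GENCODE M21, which held 55227 of 55487 identifiers. RefSeq promoters matched all 8 genes.

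Members, lists and tests were chosen with earlier results of these data known. Named genes are the 8, Elf3, up to 4 called genes per direction with the smallest p in each list (the 2 smallest where none was called), and the 2 genes most like each called member, and the text gives a part of them. The uncalled list genes, marker genes, Serpinb6a and the neighbours were named after their values were seen. Some genes of the lists are not reported here.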

Additional observations from a re-analysis of the deposited data

How the results depend on the processing

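Of 135 values of the 8 genes under 17 alternatives, 119 kept their direction and their side of the threshold. Casp8 and Casp12 were called under all 17, at log2 fold changes of 0.85 to 0.99 and -1.55 to -1.26. Ripk1 and Mlkl stayed positive and uncalled. On filtered log2(TPM + 1), filtered log2(TPM + 0.1) and unfiltered log2(TPM + 1), genes called higher numbered 1421, 1412 and 1195 against 2516, and lower 1291, 1304 and 980 against 2512. In those settings Casp2 was at 0.15, 0.16 and 0.15, and Casp9 at -0.064, -0.069 and -0.064, and with library totals Casp9 was at -0.0051, none of them called. Leaving out each library gave Casp2 -0.076 to 0.065, Casp6 -0.14 to 0.040, Casp9 -0.074 to 0.11 and Ripk3 0.43 to 0.78, so that 1 to 2 of the 8 were called higher. The cause of these shifts was not tested. With a minimum of 5 CPM, Ripk3 had no value.

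Deviations from the group means correlated at 0.0025 to 0.0073 between same-numbered libraries and at -0.033 to 0.028 between differently numbered ones. No pairing by number was thus seen. Deviations from means of 3 libraries are a weak measure of pairing, so a shared origin of same-numbered libraries is not settled by them. With the replicate block 2561 genes were higher and 2585 lower, with Casp8 at 0.88 and Casp12 at -1.48, and no call among the 8 changed. Ripk3 and Casp12 had the fewest counts of the 8, under 300 per group.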

Other observations

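The protein-coding genes on either side of each of the 8 were looked up after their values were known. Of these 16 genes 12 were tested, of which 3 rose, 3 fell and 6 did not pass, where 36.6% of all genes tested were called. Beyond Casp4, the other neighbour of Casp12 on chromosome 9, the growth factor gene Pdgfd, 795552 bases away, fell 2.39-fold, to 45.3 CPM in KO cells, against 108.0 CPM in control cells (log2 fold change -1.25 ± 0.070, SE; adjusted p = 2.07e-15, edgeR). The neighbours of Casp8 differed from each other, with Cflar higher at 0.32 ± 0.055 and the kinesin adaptor gene Trak2 at -0.062 ± 0.061 (adjusted p = 0.461). Nfatc4, a calcineurin-regulated transcription factor gene 34279 bases from Ripk3, rose 1.91-fold (adjusted p = 9.05e-05), and Adcy4, 900 bases from Ripk3 on its other side, had 2 counts over the KO libraries and 1 over the controls. Nqo2, a quinone reductase gene 13920 bases from Ripk1, fell 1.22-fold (adjusted p = 0.0334). Rfwd3, a ubiquitin ligase gene next to Mlkl, rose 1.16-fold (adjusted p = 0.00544).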
